A study of Mus musculus with 6 samples.

Results

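The 8 genes described here encode the enzymes that write and remove DNA methylation in the mouse, together with their closest helpers: *Dnmt1*, *Uhrf1*, *Dnmt3a*, *Dnmt3b*, *Dnmt3l*, *Tet1*, *Tet2* and *Tet3*. They were chosen by name, as every probe that the array files assign to one of these symbols. The choice was made with earlier results of these data known. This gave 17 probes of 8 genes, out of 55681 probes and 34797 gene names on the array. The comparison was between 2 mg and 20 mg maternal folic acid (FA) per kg diet. No member was called by a test that takes the spread between pools into account. That test called 0 of 37211 probes on the whole array. On simulated data with the spread of these arrays, it recovered 0% of changes of 4 (log2) in males and 1% in females. With both sexes together it recovered 25%, so the lack of calls does not show that the members were unchanged. The 3 arrays hybridized on 1 slide gave nearly equal levels of *Dnmt1*, *Dnmt3a*, *Dnmt3b* and *Tet1* at both doses. On that slide the difference at 20 mg was -0.98 for *Uhrf1*, -0.78 for *Tet3*, -0.34 for *Tet2* and 0.15 for *Dnmt3l* (log2, brightest probe). The 2 male pools at 20 mg, on different slides, had a median gap of 1.01 over the 8 genes, near the 1.03 of all probes tested. For *Tet2* that gap was 0.02.

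DNA methylation is the addition of a methyl group to cytosine, mostly where a guanine follows. DNMT1, brought to freshly copied DNA by UHRF1, restores the mark on the new strand after replication. DNMT3A and DNMT3B place the mark on sites that did not carry it, and DNMT3L, which has no activity of its own, stimulates them in germ cells. The TET enzymes oxidize the methyl group, and the oxidized base is then lost through replication or cut out by base excision repair. Folate supplies the methyl groups for S-adenosylmethionine, the donor that all DNA methyltransferases use, so the question of the comparison was whether a larger folate supply to the mother went with other levels of these transcripts in the newborn cerebellum. In that tissue at birth, granule cell progenitors divide rapidly and other neurons mature, and both maintenance and de novo enzymes are in use.

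The pups were C57BL/6J mice whose mothers ate an amino acid-based AIN-93G diet from 1 week before mating to the end of pregnancy. The diet held FA at 2 mg/kg, the basal requirement, or at 20 mg/kg. Cerebellum was taken on postnatal day 1, and each array was hybridized with RNA pooled from 3 pups of 1 sex and dose. There was 1 array of female pups at 2 mg, 1 of male pups at 2 mg, 2 of female pups at 20 mg and 2 of male pups at 20 mg. The pups of a pool each came from a different dam. The pool is therefore the unit of replication, and the spread at 2 mg within a sex is unknown. The second pools at 20 mg came from a different batch, with other pups and a separate RNA extraction. One field of the sample labels gives whole brain as the tissue. The 8 listed genes of granule cells and their progenitors, the main dividing lineage of this tissue, were well above background on 5 of the arrays, and 5 of them were on the sixth, described next. Forebrain genes were present too, with 10 of 10 well above background on 4 of the arrays.

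One array, labelled as the second female pool at 20 mg and called the dim array labelled female from here on, stood apart. Its median processed signal was 5.14 units, against 39.0 to 162 on the other arrays, and 23.3% of its probes were well above background, against 51.1% to 71.9%. Its mean Spearman correlation with the other arrays was 0.658, and the others had 0.861 to 0.889. *Eif2s3y*, a gene of the Y chromosome, read 10.12 (log2) on it, against 3.32 and 4.04 on the other female arrays and 10.62 to 11.99 on the male arrays, which goes against its label. The other sex transcripts were not well above background on it: *Xist*, made from the inactive X chromosome of females, read 7.27, against 3.32 on each male array and 9.67 and 10.84 on the other female arrays, and the Y-linked *Kdm5d* lay at the floor. The sex list held *Xist* and the Y-linked *Ddx3y*, *Eif2s3y*, *Kdm5d* and *Uty*. By the mean of both female 20 mg arrays, 3 of these 5 were at least 2.5-fold above the female 2 mg array. *Xist* was not among them. The list had a median of 3.70 above the female 2 mg array on the dim array labelled female, against 0.36 on female 20 mg replicate 1. The label is thus neither borne out nor replaced by another sex. Of the member probes, 11 of 17 were not well above background on this array, and the processed signals of all 17 there were between 3.65 and 58.4 units. Female differences of the members are therefore also given by array. The female and male 2 mg arrays and female 20 mg replicate 1 shared a slide. The dim array labelled female and male 20 mg replicate 1 shared a second slide, and male 20 mg replicate 2 was hybridized on its own, so dose and slide cannot be told apart except on the first.

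Levels are log2 values of the background-subtracted signal after quantile normalization over the 6 arrays, with a floor at 3.32. A value of a probe can be set against the same probe on another array but not against another probe. A gene with several probes is represented by its brightest, and the others are described with it. In bulk RNA, a lower signal from fewer cells that express a gene cannot be told apart from less RNA per cell.

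The sequences of 5 probes carry the points made below. Those of *Dnmt1* and of *Uhrf1* at base 985 cover more genome than their own length and so lie across an intron. On every 20 mg array but male 20 mg replicate 2, the *Tet3* probe at base 3494 and its other probes gave opposite dose differences. Each is a 60-base sequence of the sense strand as the array design gives it, 5′ to 3′, with no part marked.
Dnmt1: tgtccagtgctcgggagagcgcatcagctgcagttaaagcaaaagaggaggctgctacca
Uhrf1, base 985: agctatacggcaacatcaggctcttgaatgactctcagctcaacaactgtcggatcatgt
Tet3, base 2202: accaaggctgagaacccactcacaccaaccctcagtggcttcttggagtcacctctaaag
Tet3, base 3494: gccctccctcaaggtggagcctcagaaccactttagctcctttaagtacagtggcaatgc
Tet3, base 4483: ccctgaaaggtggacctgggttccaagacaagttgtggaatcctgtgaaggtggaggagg
The base is the position in the transcript. In mm9, the *Dnmt1* probe covers chr9:20711973-20712341 on the minus strand, a stretch of 369 bases for 60 bases of probe. The *Uhrf1* probe covers chr17:56451668-56452321 on the plus strand, 654 bases. The *Tet3* probes lie on the minus strand at chr6:83352743-83352802, chr6:83319720-83319779 and chr6:83318731-83318790. Exon and UTR annotation in mm9 was not used here.

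Maintenance of methylation comes first. *Dnmt1*, the maintenance methyltransferase, read 9.70 in females and 9.49 in males at 2 mg, and at 20 mg 9.46 and 8.12 in the female pools and 10.60 and 8.87 in the male pools. On the first slide the 20 mg pool lay 0.13 below the mean of both 2 mg arrays. The highest and the lowest of the 6 values were both at 20 mg, and the low one, on the dim array labelled female, was not well above background. The difference over both sexes was -0.33 ± 1.03 (limma, log2 ± SE), with an adjusted p of 1.00 over all probes tested.

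*Uhrf1*, whose protein recognizes hemimethylated DNA and recruits DNMT1, read 9.93 in females and 10.33 in males at 2 mg. At 20 mg it read 9.15 and 9.56 in the female pools and 10.96 and 9.91 in the male pools, and it was well above background on all 6 arrays. Both female pools at 20 mg lay below both 2 mg arrays, while the male pools lay on either side of the male 2 mg value. On the first slide *Uhrf1* was 0.98 lower at 20 mg, which was the widest same-slide difference of the brightest probes. In the authors' table of processed values it was 1.60 lower, past 2.5-fold.

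*Uhrf1* is a gene of the S phase, and genes of cycling cells were set beside it. On the first slide 11 of the 14 listed cycling genes also read lower at 20 mg, with a median of -0.29, and the median of all probes tested was 0.02. The replication licensing gene *Mcm2* read 8.92 and 9.07 at 2 mg and 8.00 at 20 mg, and *Rrm2*, a subunit of ribonucleotide reductase, read 11.34 and 11.56 against 10.50. The proliferation marker *Mki67* read 10.85 and 11.25 against 10.97, between both 2 mg values. On male 20 mg replicate 1, where *Dnmt1* and *Uhrf1* were both at their highest, the cycling list had a median of 0.49 above the male 2 mg array. On the same first-slide arrays the forebrain list was higher at 20 mg by a median of 1.94, with 9 of 10 genes above, and the choroid plexus list by 1.90, with 6 of 6 above. The part of these cell types in the *Uhrf1* difference was not tested.

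The other *Uhrf1* probe, at base 985 and printed above, was not well above background on any of the 6 arrays and was not tested. It belongs to another transcript record of *Uhrf1* than the bright probe at base 3430, which lies at chr17:56462770-56462829.

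**Figure D1:**
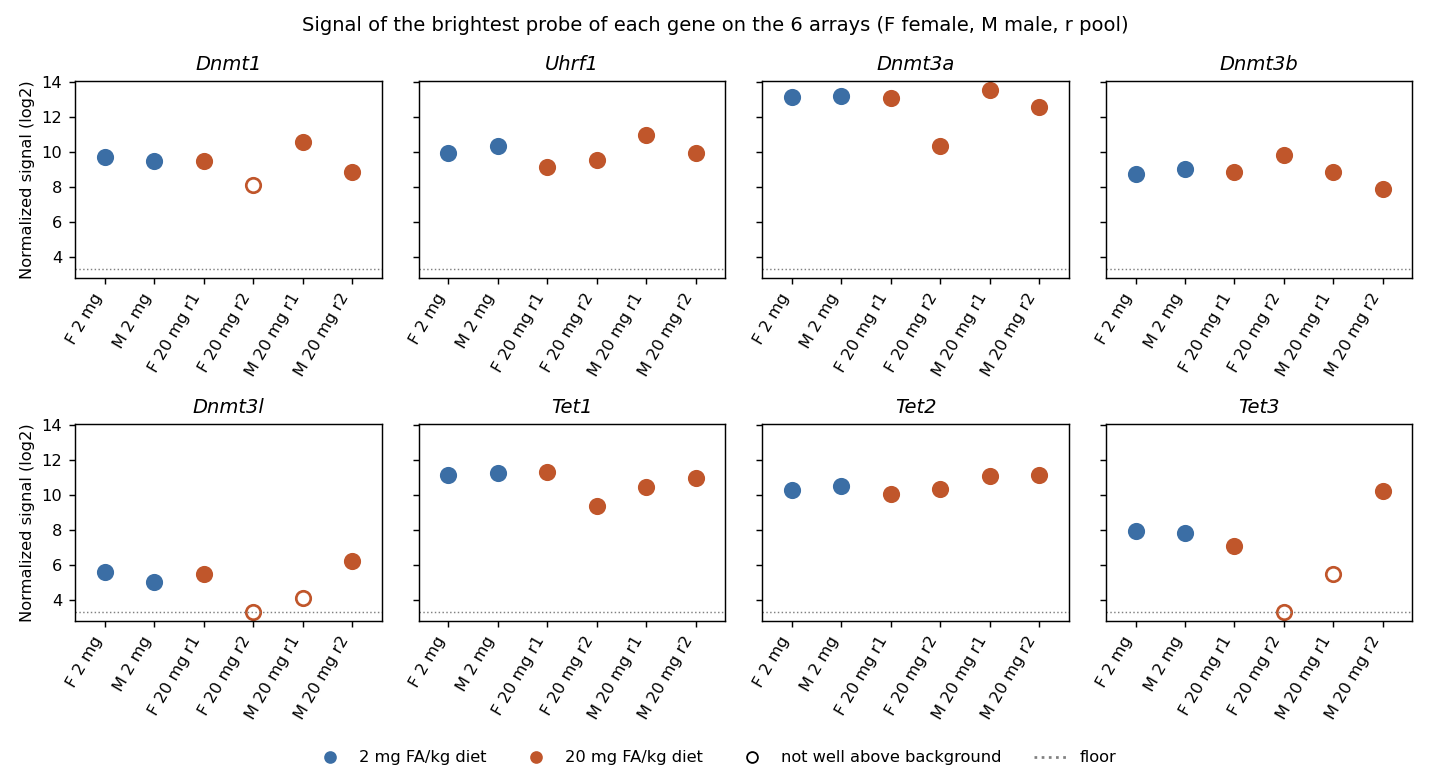
Normalized signal (log2) of the brightest probe of each of the 8 genes on the 6 arrays, with 1 point per array, blue at 2 mg and orange at 20 mg FA/kg diet, open where the probe was not well above background, and a dotted line at the floor. The 3 leftmost points of each panel share a slide and lie within 0.11 to 1.18 of each other, while the 3 rightmost spread over 0.80 to 6.89.

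The de novo enzymes follow. *Dnmt3a*, which methylates new sites in neurons, was well above background on all arrays at chr12:3914320-3914379. It read 13.11 in females and 13.19 in males at 2 mg. At 20 mg the female pools read 13.08 and 10.33, and the male pools 13.53 and 12.56. Of the 6 values 5 lay between 12.56 and 13.53, and only the dim array labelled female fell outside.

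That 1 array set the female result. The fold rule of the study asks for at least 2.5-fold between the mean of the 20 mg arrays and the 2 mg array. Probes must also pass a filter on variation. Applied to the values normalized here, the rule marked *Dnmt3a* as 2.66-fold lower in females. In the authors' table of processed values the female difference of *Dnmt3a* was -1.24, short of 2.5-fold. With the values normalized here, the rule marks 10.3% of all probes as lower and 8.65% as higher in females. The study, with its own processing, reported other counts. Without the dim array labelled female the female difference was -0.03 ± 0.90 (limma, log2 ± SE), and on the first slide it was -0.07.

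*Dnmt3b*, the de novo enzyme most used in early embryos, had 3 probes. The brightest, at base 4255 (chr2:153513403-153513462), was well above background on all arrays. It read 8.72 in females and 9.02 in males at 2 mg, 8.85 and 9.85 in the female pools at 20 mg, and 8.84 and 7.87 in the male pools at 20 mg. Both female pools lay above the female 2 mg array and both male pools below the male one. The female minus male dose difference was 1.29 ± 2.22 (limma interaction, log2 ± SE; adjusted p of 1.00), and on the first slide the doses differed by -0.01.

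At base 3843 the signal was 6.34 and 6.64 at 2 mg and 6.49 to 7.53 at 20 mg, with overlap. Another probe, at base 2950, read 7.76 and 7.52 at 2 mg and 7.13, 4.39, 7.19 and 8.55 at 20 mg, in the order female then male. The value of 4.39, on the dim array labelled female, was not well above background. It placed this probe among those marked lower in females by the fold rule, while the brightest probe of the same gene was higher in females by 0.63.

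*Dnmt3l*, the cofactor known from germ cells, read 5.61 and 5.08 at 2 mg and 5.49, 3.32, 4.17 and 6.24 at 20 mg. It was not well above background on the dim array labelled female, where it lay at the floor, nor on male 20 mg replicate 1. The 2 male pools at 20 mg lay on either side of the male 2 mg array, and the first-slide difference was 0.15. Of the 8 listed genes of germ cells and pluripotent cells, 5 were well above background on each 2 mg array. That is near the share of all probes, 63.6% on the female and 65.8% on the male 2 mg array.

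**Figure D2:**
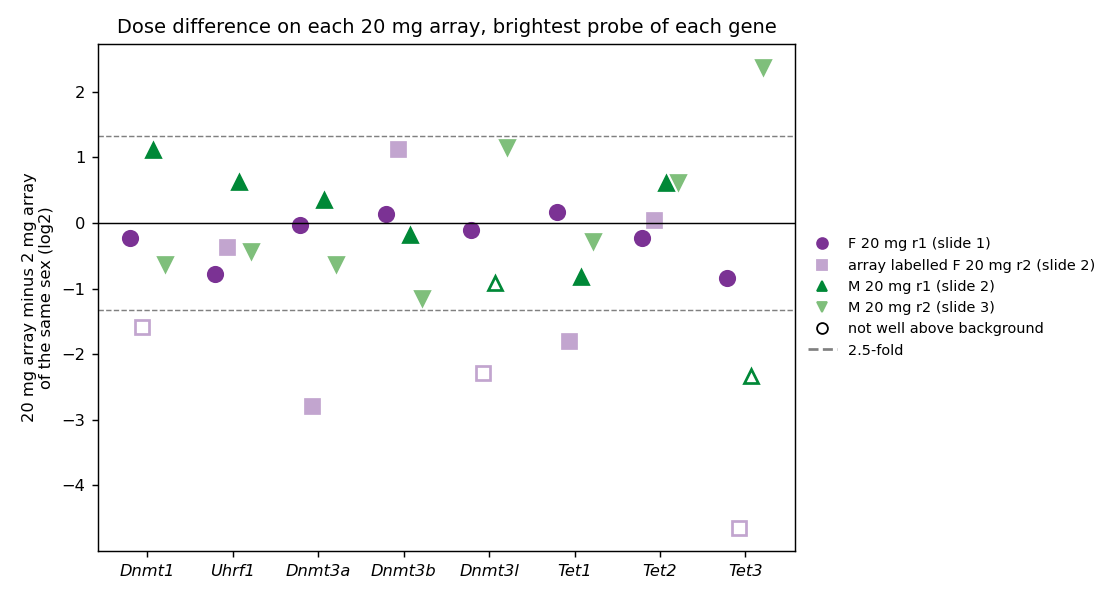
Difference (log2) of each 20 mg array from the 2 mg array of its sex for the brightest probe of each gene, with 1 symbol per array, open where the probe was not well above background there, and dashed lines at 2.5-fold. The dim array labelled female (pale squares) gave the lowest value of 5 of the 8 genes, down to -4.65 for Tet3, whose value there is the floor, and the 2 male arrays (triangles) lay on opposite sides of 0 for 5 of the 8 genes.

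The erasers come last. *Tet1* had 3 probes. The brightest, at base 6892 (chr10:62274448-62274507), was well above background on all arrays and read 11.16 and 11.27 at 2 mg. At 20 mg it read 11.33 and 9.36 in the female pools and 10.44 and 10.99 in the male pools. The first-slide difference was 0.12, the male difference was -0.55 ± 1.20 and the female difference -0.82 ± 1.20 (limma, log2 ± SE), each with an adjusted p of 1.00.

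A probe at base 5298 gave the opposite order, with 7.35 and 7.49 at 2 mg against 7.74, 7.83, 7.75 and 8.80 at 20 mg, so that every 20 mg array lay above both 2 mg arrays. For base 3128 the values were 8.29 and 8.55 at 2 mg and 7.18 to 9.24 at 20 mg, with overlap. The 3 probes of *Tet1* thus gave no common direction.

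*Tet2* was steady on its brightest probe, at base 9011 (chr3:133126751-133126810). It read 10.30 and 10.51 at 2 mg, 10.07 and 10.35 in the female pools at 20 mg, and 11.12 and 11.14 in the male pools at 20 mg. It was well above background on all arrays, and the 2 male pools differed by 0.02. Both lay above the male 2 mg array, by a mean of 0.62 ± 1.16 (limma, log2 ± SE; adjusted p of 1.00). This SE draws on the spread of all probes and is far wider than the gap between these pools.

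A second *Tet2* probe, at base 8857 and so 154 bases upstream in the same transcript, read 8.25 and 8.33 at 2 mg. At 20 mg it read 7.04 and 3.32 in the female pools and 9.39 and 7.37 in the male pools. The 3.32 is the floor, on the dim array labelled female, and with it the fold rule marked the probe as lower in females. No fold is given, since the floor is not a measured level. On the first slide it lay 1.25 below the 2 mg mean, just inside the 2.5-fold threshold, where its neighbour at base 9011 lay 0.34 below. The third probe, of another transcript record, read 5.77 and 5.97 at 2 mg and 3.32 to 6.08 at 20 mg.

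*Tet3*, the TET enzyme of the zygote and of neurons, had the widest spread of all members. The probe at base 3494, its brightest, read 7.97 and 7.84 at 2 mg. At 20 mg it read 7.13 and 3.32 in the female pools and 5.50 and 10.21 in the male pools. The low male and the low female value were not well above background and came from the second slide. The 2 male pools at the same dose thus lay on either side of the male 2 mg array, one of them not well above background.

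The other *Tet3* probes, printed above with it, read higher at 20 mg. The probe at base 2202 was well above background on all arrays and read 5.56 and 5.70 at 2 mg against 5.95, 9.31, 6.95 and 6.75 at 20 mg. The probe at base 4483 read 4.44 and 4.11 at 2 mg against 4.54, 4.99, 4.48 and 6.27 at 20 mg, and was well above background on 3 arrays. Every 20 mg array lay above both 2 mg arrays for both probes.

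The fold rule marked the probe at base 3494 as lower in females, with no fold given because its low value lies at the floor, and the probe at base 2202 was 4.20-fold higher in the same females. Both calls rested on the dim array labelled female, since on female 20 mg replicate 1 the differences were -0.84 and 0.39. In males the probe at base 4483 lay 0.37 and 2.16 above the male 2 mg array, and of these 3 arrays it was well above background on male 20 mg replicate 2 alone, so no fold is given (limma adjusted p of 1.00).

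**Figure D3:**
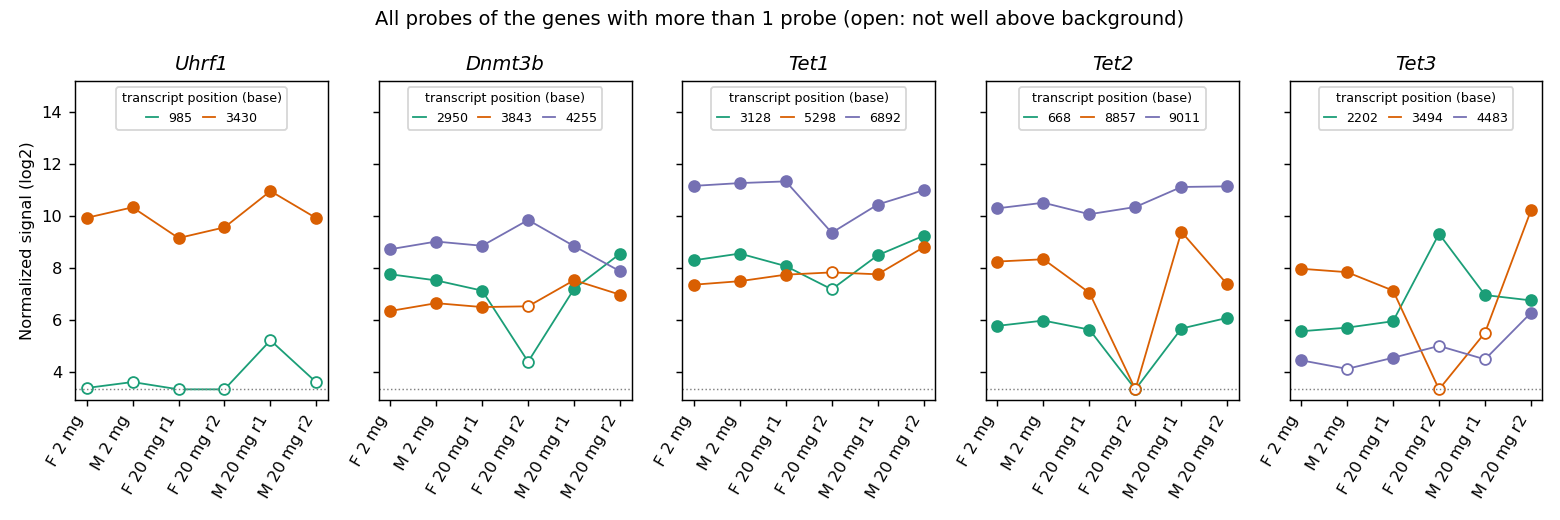
Normalized signal (log2) of every probe of the 5 genes with more than 1 probe on the 6 arrays, with lines joining the values of 1 probe and open points not well above background. The probes of Tet3 at bases 2202 and 3494 go opposite ways on the dim array labelled female (9.31 and 3.32).

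Counted together, the members are set here beside all probes, with no test of one against the other. In males the fold rule marked 0 of the 8 brightest probes and 0 of the 17 probes, against 3.58% of all probes. The male count rests on the mean of pools that disagree, since leaving out either male 20 mg array gave 1 call for *Tet3*. It was higher by 2.34 without replicate 1 and lower by 2.36 without replicate 2. Only the lower call rests on a value not well above background, that of male 20 mg replicate 1. In females it marked 2 of the 8, *Dnmt3a* and *Tet3*, both lower, and 5 of the 17 probes, 4 lower and 1 higher, against 10.3% of all probes lower and 8.65% higher. Without the dim array labelled female it marked 0 of the 8.

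The limma test, which weighs a difference against the spread between pools, called 0 of the 16 member probes tested in males, in females, over both sexes and for the difference between the sexes. It called 0 of 37211 probes on the whole array in each of these comparisons, which is 0% of the probes tested. At an unadjusted p under 0.05 it had 74 probes in males, 161 in females, 145 over both sexes and 51 for the sex difference, and no member was among them. The smallest unadjusted p of a member was 0.415 in males, 0.181 in females, 0.321 over both sexes and 0.332 for the sex difference. Standard errors over both sexes ran from 0.78 to 1.70 (log2), so a change of a few fold was not detectable with this spread between arrays.

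Pools of the same dose lay on different slides, so pool and slide cannot be told apart. The gap between the 2 male pools at 20 mg had a median of 1.01 over the 8 genes (all probes 1.03), and that of the 2 female pools a median of 1.66 (all probes 1.46). The gap was wider than the dose difference in 6 of the 8 genes in males and in 7 of the 8 in females. The dose differences had a median of 0.06 in males (all probes -0.04), with 5 genes higher and 3 lower. In females the median was -0.86 (all probes -0.21), with 1 higher and 7 lower. By array, the female median was -0.17 on female 20 mg replicate 1 and -1.69 on the dim array labelled female.

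Within the first slide the picture was narrower. The 8 genes differed between doses by -0.98 to 0.15, with a median size of 0.14 against 0.31 over all probes tested. None was past 2.5-fold, a size that 2.63% of all probes reached on this slide. Male and female pups at 2 mg differed by -0.53 to 0.41. With 1 array at 20 mg there is no test.

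No gene had doses that did not overlap on its brightest probe. Of the 17 probes 3 did, the *Tet1* probe at base 5298 and the *Tet3* probes at bases 2202 and 4483, all higher at 20 mg. On the whole array 3.24% of probes had every 20 mg array above both 2 mg arrays and 3.34% had every 20 mg array below. Without the dim array labelled female the same number of member probes, 3, did not overlap, against 12.2% of all probes.

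Normalizing the other 5 arrays without that array gave differences over both sexes from -0.50 to 0.18 for the 8 genes. The smallest unadjusted p of a member was then 0.519, with an adjusted p of 1.00 (limma).

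The partners of these enzymes were read in the same way. The list for maintenance and recruitment held 20 genes, among them *Pcna*, the replication clamp, *Hells*, a remodeller needed for methylation of repeats, *Trim28* and *Zfp57*, which protect imprints, and the histone deacetylases *Hdac1* and *Hdac2*. Of the 19 tested limma called 0, and 14 were well above background on all arrays. The fold rule marked 0 in males and 2 in females, the remodeller *Atrx*, with -1.36, and the germ-line gene *Dppa3*, which was not well above background on any array. The *Atrx* value came from the dim array labelled female, where it was not well above background and lay 3.14 below the female 2 mg array, while female 20 mg replicate 1 lay 0.42 above it. Over all probes the rule marked 3.58% in males and 10.3% lower and 8.65% higher in females. The 4 bright genes with the widest differences over both sexes were *Pcna* with -0.70, *Zfp57* with 0.64 (on opposite sides of 0 in the pools of each sex), *Hdac1* with -0.45 and *Ehmt1*, a histone methyltransferase, with 0.34. The median of the list was 0.08 (all probes -0.15).

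The list for TET partners and base excision held 25 genes, of which 24 were tested, 11 were well above background on all arrays and limma called 0. Its median over both sexes was -0.06. The fold rule marked 3 in males, all lower, against 3.58% of all probes in either direction. These were *Tdg*, the glycosylase that removes oxidized cytosine, with -1.34, *Neil2*, another glycosylase, with -1.33, and *Idh1* with -1.66. In females it marked *Smug1*, a uracil glycosylase, with -2.40, *Polb*, the repair polymerase, with -2.78, and *Idh1* with -1.62 as lower, and *Cxxc4*, a partner of TET2, with 1.71 as higher, against 10.3% of all probes lower and 8.65% higher. *Smug1* and *Polb* were not well above background on the dim array labelled female, and on female 20 mg replicate 1 they lay 0.31 and 0.54 above the 2 mg array. *Cxxc4* was 0.14 higher on female 20 mg replicate 1 and 3.28 higher on the dim array. In no gene of either list were both 20 mg arrays of a sex past 2.5-fold, and these genes other than *Idh1* and *Cxxc4* were named after their values were seen.

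*Idh1* makes the 2-oxoglutarate that TET enzymes consume, in the cytosol. It was well above background on all 6 arrays and read 10.41 in females and 10.18 in males at 2 mg, 7.49 and 10.08 in the female pools at 20 mg, and 7.93 and 9.10 in the male pools at 20 mg. All 4 arrays at 20 mg lay below both 2 mg arrays, with the dim array labelled female the closest to them. On the first slide it was 2.80 lower. Over both sexes the difference was -1.64 ± 1.09 (limma, log2 ± SE), with an unadjusted p of 0.148 and an adjusted p of 1.00. *Dmap1*, a DNMT1 partner, with 0.30, and the uracil glycosylase *Ung*, with 0.70, had every 20 mg array above both 2 mg arrays. The maintenance list of 20 genes thus held 1 gene above, and the TET list of 25 held 1 above and 1 below. Over all probes 3.24% lay above in this way and 3.34% below. The other 3 of the 4 bright genes with the widest differences in this list were *Ung*, *Cxxc4* with 0.44 and *Gadd45g*, a stress gene linked to demethylation, with 0.38.

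**Figure D4:**
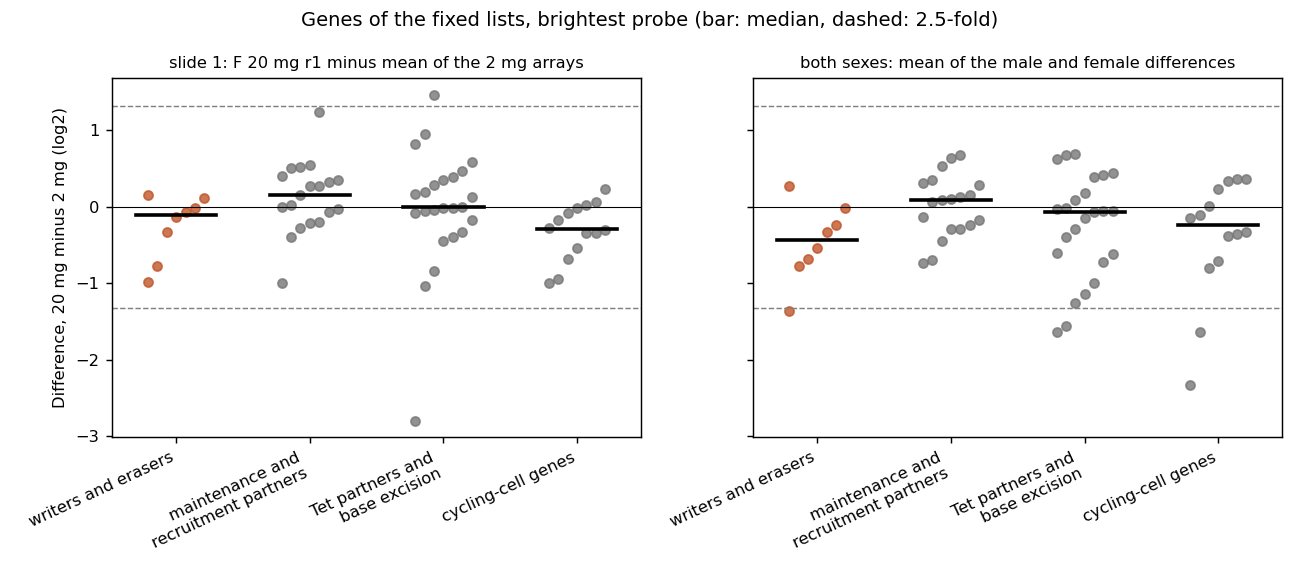
Difference between 20 mg and 2 mg (log2) of the tested genes of 4 lists, by brightest probe, on the first slide (left) and as the mean of the male and female differences (right), with a bar at each median and dashed lines at 2.5-fold. Medians on the first slide were -0.10 for the 8 genes, 0.16 and -0.01 for the partner lists and -0.29 for cycling genes, and the lowest point is Idh1 with -2.80.

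For the 5 genes whose brightest probe was well above background on all arrays, the gene with the most similar course over the 6 arrays was sought among 7329 genes, by the root mean square difference of the centred log2 values. It was *Enc1* for *Dnmt3a* (0.060), *Elk3* for *Dnmt3b* (0.068), *Dhrs3* for *Uhrf1* (0.213), *Gm5801* for *Tet1* (0.108) and *Fbxw8* for *Tet2* (0.112). With 6 arrays and this many candidates a close course is a description only, and no p is given. Among the 5 members the most similar pair was *Uhrf1* and *Tet2* (0.400) and the least similar *Dnmt3a* and *Dnmt3b* (1.49).

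The promoters of the members differ in the density of CG, a cytosine followed by a guanine, where these enzymes act. In RefSeq (GRCm38.p6), windows of 300 bases around the start sites were found for 8 of 8 members, 15 windows in all. The motif CG was counted in each, and its count is the same on both strands. The *Tet2* window held 57, a number that 0.152% of all 32851 windows reach, and the *Dnmt3a* windows held 46, 47 and 18. The *Dnmt3b* window held 30, that of *Tet3* 22 and that of *Tet1* 17. The *Dnmt1* windows held 2, 12 and 33, the *Uhrf1* windows 12 and 33, and the *Dnmt3l* windows 6, 4 and 3, with a median of 7 over all windows. Methylation itself was not measured on these arrays.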

How the data were processed

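RNA of 6 pools was measured on single-colour SurePrint G3 arrays. The intensities deposited by the authors came from Agilent Feature Extraction 10.7.3.1, which subtracts background and flags spots well above it, without scaling between arrays. The log2 values of the authors' deposited table were quantile normalized with a floor in BRB-ArrayTools. In that table the lowest value and the rank order differ most on the dim array labelled female (Spearman 0.831 with the scanner values, 0.976 to 0.997 elsewhere).

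From the processed signals, control spots and outlier flags were dropped, spots of a probe averaged, log2 taken, and quantile normalization over 6 arrays applied (limma 3.58.1, R 4.3.3), with a floor of 10 units afterwards. The fold rule follows the methods of the study and was applied to these values. The limma fit had 4 groups, 2 residual degrees of freedom and Benjamini-Hochberg adjustment over 37211 probes well above background on at least 2 arrays. Each lone 2 mg array was assumed to vary like those at 20 mg. Tested on simulated data with 200 changes of 4 (log2) among 37211 probes, the fit recovered 100% at a noise SD of 0.2. At the SD of these arrays, 1.44, the recovered share was 0% for males, 1% for females and 25% with both sexes together. The number of arrays limits the precision.

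Groups came from the labels. All members and all their probes are named. Partner genes were to be named where the fold rule marked them on both arrays of a sex, and otherwise the 4 bright genes with the widest difference. The other partner genes marked by the fold rule, and *Dmap1*, were named after their values were seen. *Hells*, *Trim28* and *Hdac2* are named as examples of their list. The members and lists were chosen with earlier results of these data known. Alternatives were the normalization, the place of the floor, the background correction, the deposited table, the filters, slide and scan day as terms, the probe that stands for a gene, the prior, and leaving out each array. Marker lists also covered other cerebellar cells, with 10 of 10 well above background at 2 mg, meninges, with 6 of 6, and red blood cells, with 5 of 6. Probe positions are in mm9, as the file headers give the build.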

Additional observations from a re-analysis of the deposited data

Results flagged for a closer look

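The brightest *Dnmt3b* probe, at base 4255, drew attention because both female pools at 20 mg lay above the female 2 mg array, by 0.13 and 1.13, and both male pools lay below the male one, by -0.18 and -1.14. The female minus male dose difference was 1.29 on the log2 scale, and the limma interaction test gave an unadjusted p of 0.567 and an adjusted p of 1.00. The wider female value came from the dim array labelled female, and the other *Dnmt3b* probes did not show opposite sexes on every array.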

How the results depend on the processing

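No member was called by limma in any comparison under any alternative run, 12 for males, females and the sex difference and 16 for both sexes together. Among members, 0.305 was the smallest adjusted p under them. No paired analysis was possible because each sex has 1 array at 2 mg, so the doses share no more than 1 replicate number. The count of members marked by the fold rule in females, 2, became 0 with a shift to a common 75th percentile, and 1 with normexp correction, with the deposited table and with the median over all probes of a gene. It ranged from 0 to 2 with a 20 mg array left out, and was 0 without the dim array labelled female. For males the count ranged from 0 to 1. The count of members past 2.5-fold on the first slide became 1 with the deposited table (*Uhrf1*). The count of members with doses that do not overlap ranged from 0 to 3 with 1 array left out, 3 without male 20 mg replicate 1 and 1 without female 20 mg replicate 1 or male 20 mg replicate 2. The *Tet3* dose difference in females turned from -2.74 to 0.33 with the median over its probes, since 2 of its 3 probes read higher there. Under the same choice the male differences of *Tet1* and *Dnmt3b* turned from -0.55 to 0.31 and from -0.66 to 0.35, and the *Tet2* difference over both sexes from 0.26 to -0.70. The percentile shift turned *Dnmt3l* in females from -1.20 to 0.45, and without the dim array labelled female *Tet1* in females turned from -0.82 to 0.16. Over the whole array, limma made 3 calls in females with the percentile shift and 3 with normexp, 0 to 96 with an array left out (96 without female 20 mg replicate 1), and 1 call over both sexes with slide as a fixed term. With an array left out it made 0 to 13 calls over both sexes, 0 to 1 in males and 0 to 2 for the sex difference. The cause of these changes was not tested. Slide as a random block could not be estimated beside 4 groups, and was run with additive sex and dose, chosen after seeing the data, with 0 calls. Signals near background on the dim array labelled female limit every female value.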
